A study of Drosophila melanogaster with 16 samples.

Results

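Glia take up and recycle the transmitters that neurons release, and they feed neurons with sugar and its products. The 8 genes followed here were chosen by symbol for such roles: Gat, which encodes a transporter that takes up GABA; Eaat1 and Eaat2, members of the excitatory amino acid transporter family; Gs1 and Gs2, the mitochondrial and the cytosolic glutamine synthetase; Tret1-1, a trehalose transporter; Obp44a, a secreted carrier of the odorant-binding protein family; and axo, which encodes axotactin, a secreted glial protein of the neurexin superfamily. Of the 8 genes, 7 were read by 10 probe sets that carry that gene symbol alone, out of 13966 probe sets tested. Gat, Eaat2, Gs1, Gs2 and Obp44a had 1 probe set each, Tret1-1 had 2 and axo had 3. No probe set carried the symbol Eaat1, so it has no value here. A further probe set listed under Tret1-1 together with Tret1-2 was not used.

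In the fly nervous system the glutamate and GABA cycle runs between neurons and glia. Released transmitter is cleared by glial transporters, glutamate is turned into glutamine by glutamine synthetase, and glutamine serves neurons as a source of new transmitter. Trehalose, the main blood sugar of insects, enters through transporters of the glia that line the nervous system. Most of these functions belong to differentiated glia, whereas the embryos here were at stage 11, an early stage of neurogenesis. All arrays were of this stage, so any part of it in the levels below was not tested.

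RNA of stage 11 embryos was hybridised to Affymetrix arrays of the Drosophila genome, 16 of them in all. Control embryos, called wild-type in the labels, and embryos in which glide/gcm was overexpressed (scagcm in the titles, gcm below) both carried mCD8-GFP, a fluorescent membrane protein, in their neuroectodermal cells. RNA came either from whole embryos or from neuroectodermal cells purified after dissociation with anti-mCD8 microbeads, called sorted cells below. The sources used here give neither the driver of the transgenes nor the number of embryos per array. They do not say that replicates were collected separately, so a p-value covers the spread between arrays, which may be technical. Sorted gcm 2 and sorted gcm 3 held identical values in all 14010 probe sets and were counted as 1 array, named sorted gcm 2.

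Levels are log2 of the quantile normalised intensity plus 16, and a level under 5 (an intensity under 16) is taken as near background. The array labelled whole control 3 resembled the sorted arrays (mean correlation 0.931 over probe sets) more than the other whole embryo arrays (0.691). For this likeness it was left out. Its gcm level of 13.10 was also near the mean of 13.07 in sorted gcm cells when all 15 arrays were normalised together. Levels and tests come from the other 14 arrays. They were 4 of sorted controls, 3 of sorted gcm, 3 of whole controls and 4 of whole gcm. Tests with all 15 arrays stand beside them. A probe set was called at a limma adjusted p under 0.05. The gene gcm itself rose with overexpression by 1.43 (SE 0.22, n = 3 against 4, adjusted p = 0.00321, limma) in sorted cells and by 2.35 (SE 0.22, adjusted p = 6.40e-05) in whole embryos. Over all 15 arrays gcm differed by 1.46 and 1.17, not called (adjusted p = 0.982 and 0.604, limma). The glial gene repo rose by 2.46 and 1.91 (adjusted p = 1.86e-05 and 8.88e-04), and over all 15 arrays it differed by 2.45 and 0.75 (adjusted p = 0.518 and 0.729), not called. Mean gcm levels were 11.66 in sorted controls, 13.09 in sorted gcm cells, 8.42 in whole controls and 10.77 in whole gcm embryos. Those of repo were 8.53, 10.98, 6.22 and 8.13 in the same order. Sorted controls thus already had higher mean levels of gcm and repo than whole gcm embryos. The choice of arrays was made with earlier results known, so the gcm and repo calls are not independent of it. Precision is limited by how few arrays each group has.

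None of the 10 probe sets passed the test for gcm overexpression, in sorted cells or in whole embryos. Gs1 came closest, with a higher mean level in both preparations. Gat and Eaat2 stayed near background in every group. Gs2, 1 probe set of Tret1-1 and Obp44a had lower means in sorted cells than in whole embryos, and that contrast held for Gs2 and the Tret1-1 probe set in controls and in gcm embryos alike.

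**Figure D1:**
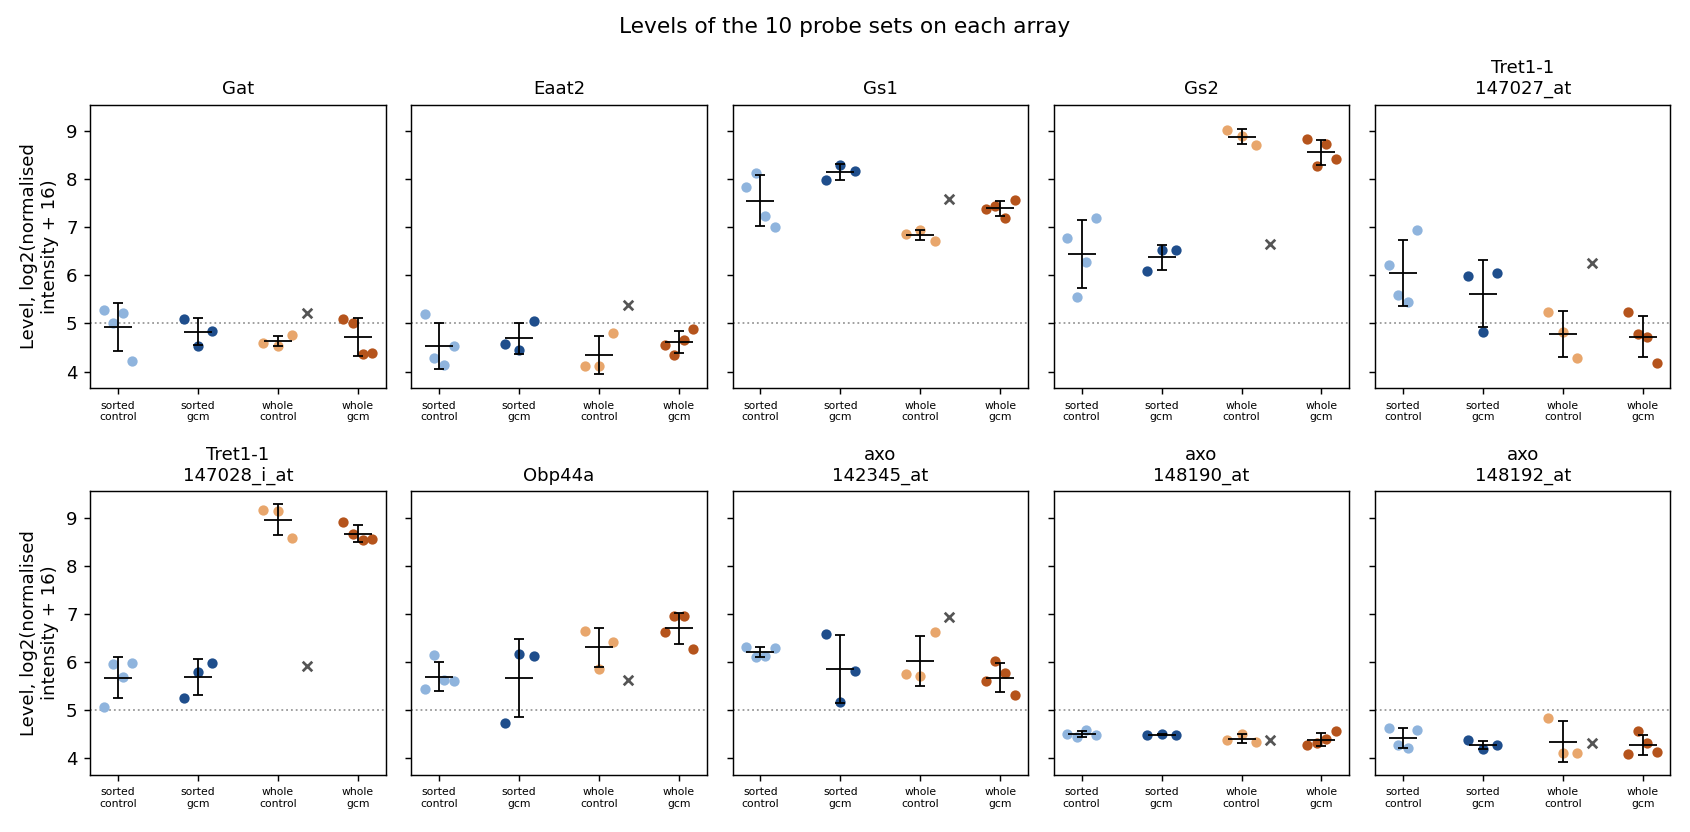
Level of each of the 10 probe sets (vertical axis, log2 of the normalised intensity plus 16) on each of 14 arrays, by group, with the mean and SD of each group as black bars. The cross is the array labelled whole control 3 in the normalisation of all 15 arrays, and the dotted line is the level of 5 below which a signal is near background. Gs2 and Tret1-1 147028_i_at are high in both whole embryo groups, at 8.27 or above on every array other than the cross.

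The transmitter transporters gave little signal. Gat had mean levels of 4.93 ± 0.50 (SD, n = 4) in sorted controls, 4.83 ± 0.28 (SD, n = 3) in sorted gcm cells, 4.63 ± 0.11 (SD, n = 3) in whole controls and 4.71 ± 0.40 (SD, n = 4) in whole gcm embryos. Its highest value on any of these arrays was 5.28, and every neighbouring pair of groups in this order overlapped. Eaat2, whose product carries aspartate and taurine, had means of 4.69 ± 0.33 (SD, n = 3) in sorted gcm cells, 4.61 ± 0.22 (SD, n = 4) in whole gcm embryos, 4.54 ± 0.47 (SD, n = 4) in sorted controls and 4.35 ± 0.40 (SD, n = 3) in whole controls. Single arrays ran from 4.11 to 5.20, and here too each group overlapped the next. At such levels a fall could not be measured and small rises may be missed.

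With gcm, Gat differed by -0.10 (95% interval -0.65 to 0.45) in sorted cells and by 0.08 (-0.47 to 0.63) in whole embryos. Eaat2 differed by 0.16 (-0.37 to 0.68) and 0.26 (-0.26 to 0.79). The intervals come from the limma fit and apply to the compressed scale near background, so they do not bound a change in the transcript itself. Between sorted cells and whole embryos Gat differed by 0.30 in controls and 0.11 with gcm, and Eaat2 by 0.19 and 0.08, none of them called. Over all 15 arrays Eaat2 differed by 0.01 for gcm in whole embryos and by -0.07 between control preparations.

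The mitochondrial glutamine synthetase Gs1 was clearly above background in all groups. In sorted controls its levels were 7.84, 8.13, 7.23 and 7.00, and in sorted gcm cells 7.97, 8.30 and 8.17. The sorted gcm arrays lay close together, while the sorted controls spread widely. Sorted gcm 1, at 7.97, was below the highest sorted control of 8.13, so the groups overlapped. Sorted gcm 2 and sorted gcm 4 were above every sorted control. In whole controls the levels were 6.85, 6.94 and 6.72, and in whole gcm embryos 7.38, 7.44, 7.19 and 7.56. All whole gcm arrays were above all whole control arrays, a separation seen in 12.3% of all probe sets. Gs1 was higher with gcm by 0.60 (SE 0.23, 95% interval 0.11 to 1.08) in sorted cells and by 0.56 (SE 0.23, 0.08 to 1.04) in whole embryos. The unadjusted p was 0.0186 and 0.0257 and the limma adjusted p 0.330 and 0.322, so neither difference was called. Including whole control 3, the differences were 0.59 and 0.36 (adjusted p = 0.886 and 0.626), and the array labelled whole control 3, at 7.58, removed the separation in whole embryos. The interaction, which asks whether the gcm effect differs between preparations, was 0.04 (95% interval -0.64 to 0.72).

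In sorted cells Gs1 was also above whole embryos, by 0.72 (SE 0.23, adjusted p = 0.0164, limma) in controls and by 0.75 (SE 0.23, adjusted p = 0.0124) with gcm, 1.64-fold and 1.69-fold, without overlap. The order of its means, from sorted gcm over sorted control and whole gcm to whole control, was separated without overlap only at the last step. The control call depended on the scaling, on single arrays and on the groups in the fit. The difference was 0.05 (adjusted p = 0.903) with the values as deposited, 0.48 (adjusted p = 0.148) with median centring and 0.52 (adjusted p = 0.145) with all 15 arrays. Leaving out sorted control 1 gave 0.62 (adjusted p = 0.0506), leaving out sorted control 2 gave 0.52 (adjusted p = 0.0516) and leaving out whole control 4 gave 0.66 (adjusted p = 0.0570). A fit of only the 2 control groups kept 0.72 without the call (adjusted p = 0.0604). In gcm embryos it was 0.42 (adjusted p = 0.278) with the values as deposited and 0.54 (adjusted p = 0.117) with median centring. The median over all probe sets in controls was 0.07, and -0.16 and 0.27 with these scalings, so relative to it Gs1 was higher by 0.65, 0.21 and 0.21.

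The cytosolic glutamine synthetase Gs2 had the opposite distribution. Its levels were 6.77, 5.55, 6.28 and 7.18 in sorted controls and 6.08, 6.52 and 6.53 in sorted gcm cells. They were 9.02, 8.89 and 8.71 in whole controls and 8.83, 8.27, 8.72 and 8.41 in whole gcm embryos. No sorted array reached the lowest whole embryo array, while control and gcm arrays overlapped within each preparation. Sorted cells differed from whole embryos by -2.43 in controls (SE 0.29, 5.37-fold, adjusted p = 3.67e-06, limma) and by -2.18 with gcm (SE 0.29, 4.53-fold, adjusted p = 1.20e-05). Over all 15 arrays the differences were -1.86 (adjusted p = 0.00947) and -2.16 (adjusted p = 0.00309). Fewer cells of a type that carries the transcript and less RNA per cell cannot be told apart in such samples. Nor can either be told apart from effects of the dissociation and purification that only sorted cells went through. With gcm, Gs2 differed by -0.07 (95% interval -0.68 to 0.55) in sorted cells and -0.31 (-0.93 to 0.30) in whole embryos, the latter 0.24 with all 15 arrays.

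The 2 probe sets of Tret1-1, the trehalose transporter, went in opposite directions. The probe set 147028_i_at had levels of 5.06, 5.96, 5.69 and 5.99 in sorted controls and 5.26, 5.80 and 5.98 in sorted gcm cells. Its levels were 9.15, 9.13 and 8.58 in whole controls and 8.91, 8.67, 8.53 and 8.56 in whole gcm embryos. The preparations were far apart and control and gcm arrays overlapped within each. Sorted cells differed from whole embryos by -3.27 (SE 0.24, 9.68-fold, adjusted p = 2.06e-08, limma) in controls and by -2.99 (SE 0.24, 7.94-fold, adjusted p = 6.40e-08) with gcm. Over all 15 arrays these were -2.49 (adjusted p = 0.00692) and -2.96 (adjusted p = 0.00157).

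The probe set 147027_at of Tret1-1 had levels of 6.21, 5.60, 5.45 and 6.94 in sorted controls and 5.99, 4.82 and 6.05 in sorted gcm cells. In whole controls they were 5.23, 4.82 and 4.28, and in whole gcm embryos 5.23, 4.79, 4.72 and 4.17. Sorted controls were above whole controls without overlap, and sorted gcm 2 lay among the whole gcm arrays. The difference between sorted cells and whole embryos was 1.28 (SE 0.39, 2.42-fold, adjusted p = 0.0135, limma) in controls and 0.89 (SE 0.39, adjusted p = 0.0746) with gcm. The control call ended with all 15 arrays (0.89, adjusted p = 0.137) and without whole control 4 (1.03, adjusted p = 0.0767). The difference with gcm was 1.30 (adjusted p = 0.0164) without sorted gcm 2, 0.91 (adjusted p = 0.0400) without sorted control 4 and 0.98 (adjusted p = 0.0193) with median centring, and 0.89 was called when only the gcm groups were fitted (adjusted p = 0.0472). No direction can therefore be given for Tret1-1 as a gene between sorted cells and whole embryos. The sources used here do not say which transcripts each probe set reads. The gcm differences of 147027_at were -0.43 (95% interval -1.26 to 0.40) in sorted cells and -0.05 (-0.88 to 0.78) in whole embryos, and those of 147028_i_at were 0.00 (-0.51 to 0.52) and -0.28 (-0.80 to 0.23). Over all 15 arrays the whole embryo values became -0.42 and 0.47, again not called.

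The carrier gene Obp44a was lower in sorted gcm cells than in whole gcm embryos. Its levels were 5.43, 6.14, 5.62 and 5.60 in sorted controls and 4.74, 6.16 and 6.13 in sorted gcm cells, and 6.65, 5.85 and 6.41 in whole controls and 6.63, 6.95, 6.96 and 6.27 in whole gcm embryos. The gcm arrays of the preparations did not overlap, although sorted gcm 1 alone was far below the others, and the control arrays did overlap. The difference was -1.02 (SE 0.33, 2.03-fold, adjusted p = 0.0199, limma) with gcm and -0.61 (SE 0.33, adjusted p = 0.154) in controls, and with all 15 arrays -1.01 (adjusted p = 0.0382) and -0.43 (adjusted p = 0.362). Without sorted gcm 1 the difference with gcm was -0.56 (adjusted p = 0.149), and without whole gcm 2 or whole gcm 3 it was -0.93 (adjusted p = 0.0533 and 0.0538). With the values as deposited the control difference was -1.03 (adjusted p = 0.0153). The interaction was -0.42 (95% interval -1.42 to 0.59), so a difference between control and gcm in this contrast was not shown. With gcm, Obp44a differed by -0.02 (-0.73 to 0.69) in sorted cells and 0.40 (-0.31 to 1.11) in whole embryos.

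Of the 3 probe sets of axo, only 142345_at was above background. Its levels were 6.31, 6.10, 6.12 and 6.30 in sorted controls, 6.58, 5.17 and 5.82 in sorted gcm cells, 5.75, 5.71 and 6.62 in whole controls and 5.60, 6.02, 5.77 and 5.31 in whole gcm embryos. Each group overlapped the next in the order of means, and the sorted gcm arrays spread most. With gcm it differed by -0.35 in sorted cells (95% interval -1.02 to 0.31) and by -0.35 in whole embryos (-1.01 to 0.31), the latter -0.58 (adjusted p = 0.541) with all 15 arrays. Between sorted cells and whole embryos it differed by 0.18 in controls and 0.18 with gcm. The probe sets 148190_at and 148192_at stayed between 4.09 and 4.83 on all 14 arrays, and their differences ran from -0.15 to 0.10 in the comparisons of 2 groups.

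**Figure D2:**
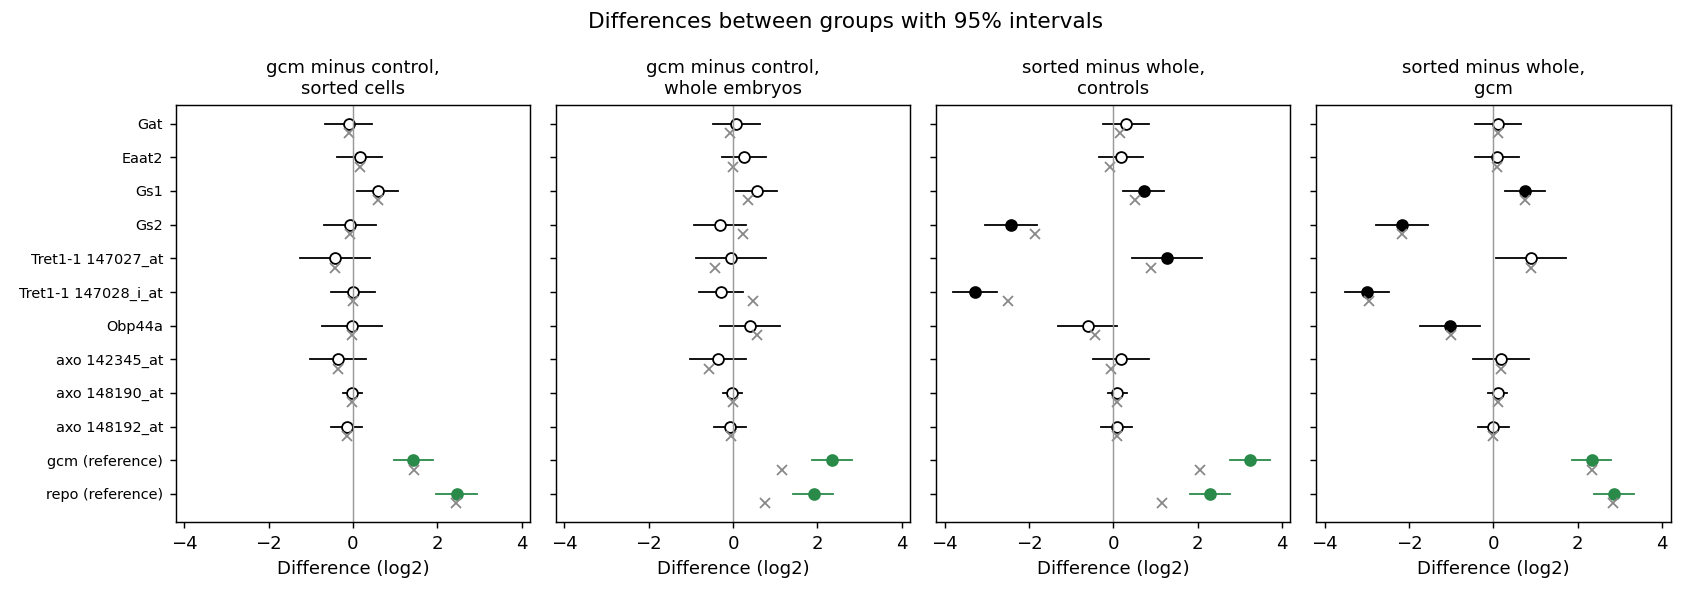
Difference in log2 level (horizontal axis) with its 95% interval from the limma fit of 14 arrays for each of the 10 probe sets and, in green, for gcm and repo, in 4 comparisons. Filled points were called, open points were not, and crosses are the differences with all 15 arrays. In the first 2 panels no member is filled, and in the last 2 Gs2 and Tret1-1 147028_i_at lie below -2.

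Counted over the 10 probe sets, gcm overexpression gave 0 limma calls in sorted cells, where 0.773% of all probe sets were called, and 0 in whole embryos, where 0.444% were. At an unadjusted p under 0.05, 1 of 10 passed in each, which was Gs1, against 1482 and 1622 of all 13966 probe sets. The interaction also gave 0 calls, with 0.0286% of all probe sets called and 0 of the 10 at an unadjusted p under 0.05 (1468 of all). The median difference of the 10 was -0.05 in sorted cells and -0.04 in whole embryos, against -0.01 and -0.02 over all probe sets. The limma count over all 15 arrays was 0 in these 3 comparisons, where 0.122%, 0.0573% and 0.00716% of all probe sets were called and 776, 1560 and 877 had an unadjusted p under 0.05. None of the 10 was separated without overlap in sorted cells, against 9.09% of all probe sets. With so few calls in all, a count of 0 among 10 is near the background.

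Between sorted and whole controls 4 of the 10 were called, 2 higher (Gs1 and Tret1-1 147027_at) and 2 lower (Gs2 and Tret1-1 147028_i_at), where 46.4% of all probe sets were called, 24.9% higher and 21.4% lower. The groups did not overlap for 4 of the 10, against 47.1% of all. With the values as deposited 1 was higher and 3 lower, where 43.5% of all probe sets were called. With median centring 3 were higher and 2 lower, where 56% of all were. The count was 2 over all 15 arrays, both lower, where 26.1% of all probe sets were called. With gcm 4 of the 10 were called, Gs1 higher and Gs2, Tret1-1 147028_i_at and Obp44a lower, where 45.6% of all were called, 24.7% higher and 20.9% lower. Again 4 of the 10 did not overlap, against 50.7% of all. Over all 15 arrays the count stayed 4, with 36.9% of all called. With the values as deposited it was 0 higher and 3 lower, with 42.1% of all called. In all, the share of the 10 that differed between sorted cells and whole embryos was near that of all probe sets. These comparisons share arrays, so the counts are not independent of each other.

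Marker lists of several cell types, the labelled ones among them, had more calls higher than lower in sorted controls, where 24.9% of all probe sets were called higher and 21.4% lower. Of 10 neuroblast and neuroectoderm markers measured, 6 were higher and 2 lower in sorted than in whole controls, and their summed normalised intensity ran from 13490 to 16770 against 3153 to 4572. Of 11 glial markers 9 were higher, with sums of 8468 to 12140 against 3909 to 5907. With all 15 arrays 3 were called, where 26.1% of all probe sets were called in either direction. Neuronal markers were higher in 5 of 8, with sums of 4719 to 8029 against 488.8 to 1003. Lists written for other tissues also had genes called higher. Of 4 genes measured in the trachea list (btl, bnl, esg and sano) 2 were higher, with sums of 1191 to 1288 against 493.5 to 506.7. Its genes trh and tango were not measured, and whether tracheal cells were among the sorted cells was not tested. Of 4 markers of mesoderm and muscle 2 were higher (491.1 to 586.9 against 337.2 to 391.6). The sources used here do not say whether any cells of these tissues carried mCD8-GFP. Fat body, yolk and endoderm markers had sums of 220.8 to 300.8 in sorted and 198.3 to 389.6 in whole controls, and 1 of 6, the endodermal factor gene GATAe, was lower in sorted cells with a difference of -1.12. Hemocyte markers had sums of 811 to 1188 against 1311 to 1556, with 1 of 8 higher and 2 lower, among them the scavenger receptor gene crq (-1.71, from a mean of 6.64 in whole to 4.93 in sorted controls). In each of these control groups 1 of the 6 and 2 of the 8 had a mean level under 5. The median difference was 0.05 for the fat body, yolk and endoderm list and 0.11 for the hemocyte list. Over all probe sets it was 0.07, so neither list was lower by its median. The summed hemocyte intensity was however lower on every sorted control array than on every whole control array. Any part of these cell types in the lower Gs2 and Tret1-1 147028_i_at was not tested. In sorted gcm cells the hemocyte sum was 1472 to 1835 and in whole gcm embryos 1088 to 1604. The glial sum was 10130 to 11570 in sorted gcm cells and 3703 to 5753 in whole gcm embryos, overlapping the controls of each preparation. For gcm, 3 of the 11 glial markers were called higher in sorted cells and 1 in whole embryos. Of all probe sets 0.773% and 0.444% were called there. Over all 15 arrays 0 of the 11 were called in either, where 0.122% and 0.0573% of all were.

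Of 11 genes of transmitter metabolism and vesicle loading measured, 3 were lower and 0 higher in sorted than in whole controls (median -0.45, against 0.07 over all probe sets), where 21.4% of all probe sets were called lower and 24.9% higher, so the count lower is near the background. The 3 genes were glutamate dehydrogenase Gdh (-1.98, adjusted p = 8.13e-05, limma) and the aspartate aminotransferases Got1 (-1.48, adjusted p = 1.30e-04) and Got2 (-0.72, adjusted p = 0.0223). Gdh had a mean of 5.86 ± 0.55 (SD, n = 4) in sorted and 7.84 ± 0.41 (SD, n = 3) in whole controls. With gcm 4 were lower and 1 higher, where 20.9% and 24.7% of all probe sets were. Gdh was at -2.95 and Got1 at -2.29. The gene that was higher was Sardh, a sarcosine dehydrogenase, with 2.17, and it was also the only gene of the list called for gcm in sorted cells, by 2.24 (adjusted p = 9.53e-05) from 4.87 ± 0.27 (SD, n = 4). Its interaction was 2.19 (adjusted p = 0.0348, limma), where 0.0286% of all probe sets were called. Over all 15 arrays the interaction was called for 0 of the 11 and for 0.00716% of all probe sets. Sardh was put on the list with that rise already known, so its call supports nothing about the list. In the fit of all 15 arrays 2 of the 11 were lower in sorted than in whole controls, where 26.1% of all probe sets were called in either direction.

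Of 15 receptors for the same transmitters measured, 3 were higher, 0 lower and 12 not called in sorted against whole controls, near the background of 24.9% of all probe sets called higher. The 3 were the kainate-type receptor gene Ekar (2.11, adjusted p = 3.25e-06, limma), the glutamate-gated chloride channel gene GluClalpha (0.91, adjusted p = 0.00196) and the GABA receptor subunit gene Lcch3 (1.07, adjusted p = 0.00338). Ekar had a mean of 6.35 ± 0.36 (SD, n = 4) in sorted and 4.24 ± 0.13 (SD, n = 3), near background, in whole controls. With gcm 2 were higher, Ekar by 1.83 and GluClalpha by 1.07, where 24.7% of all probe sets were called higher. In controls 1 was higher over all 15 arrays, where 26.1% of all probe sets were called in either direction. The gcm comparisons called 0 of the 15 by limma in either preparation, where 0.773% and 0.444% of all probe sets were called, and 1 and 0 of the 15 had an unadjusted p under 0.05.

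For sugar and monocarboxylate supply, 2 of 15 genes measured were higher and 3 lower in sorted than in whole controls (median -0.03), where 24.9% and 21.4% of all probe sets were. Tps1, which makes trehalose, differed by -2.88 (adjusted p = 9.24e-08, limma), from 9.09 ± 0.12 (SD, n = 3) in whole to 6.21 ± 0.39 (SD, n = 4) in sorted controls. The glycogen phosphorylase gene Glyp differed by -1.37 (adjusted p = 2.16e-04), and chk, a monocarboxylate transporter gene of glia, by 1.40 (adjusted p = 4.55e-04). With gcm 1 was higher and 4 lower, where 24.7% and 20.9% of all probe sets were. Tps1 differed by -2.56, Glyp by -2.54 and chk by 1.50. Glyp was the only gene of this list called for gcm, with 1.20 (SE 0.24, adjusted p = 0.0432) in whole embryos, and over all 15 arrays it was not called. Over the 15 arrays 2 were lower and 0 higher in sorted than in whole controls, where 26.1% of all probe sets were called in either direction.

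Other carriers and the neurexin family were called only between preparations. Of 40 lipid and odorant carriers measured, 6 were higher and 8 lower in sorted than in whole controls, and with gcm 7 and 7, with medians of -0.00 and 0.07. Of all probe sets 24.9% and 21.4% were called higher and lower in controls, and 24.7% and 20.9% with gcm. The list was therefore near the background and had no common direction. The 3 carriers with the smallest p were all lower, namely Obp99a (-2.07 in controls and -2.07 with gcm), the lipoprotein gene apolpp (-2.90 and -2.43) and the fatty acid binding protein gene fabp (-1.77 and -1.67). Of 7 genes of the neurexin family and its partners 3 were higher in sorted than in whole controls, Cont by 2.92, Nrx-1 by 1.33 and Nlg4 by 0.80, and Cont and Nlg4 also with gcm, by 2.88 and 0.69. In controls the counts over all 15 arrays were 1 higher and 6 lower of the 40, and 1 higher of the 7. There 26.1% of all probe sets were called in either direction. For gcm limma called 0 genes of either list in sorted cells and in whole embryos, where 0.773% and 0.444% of all probe sets were called. At an unadjusted p under 0.05 there were 6 and 1 of the 40 carriers and 0 and 0 of the 7 others.

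**Figure D3:**
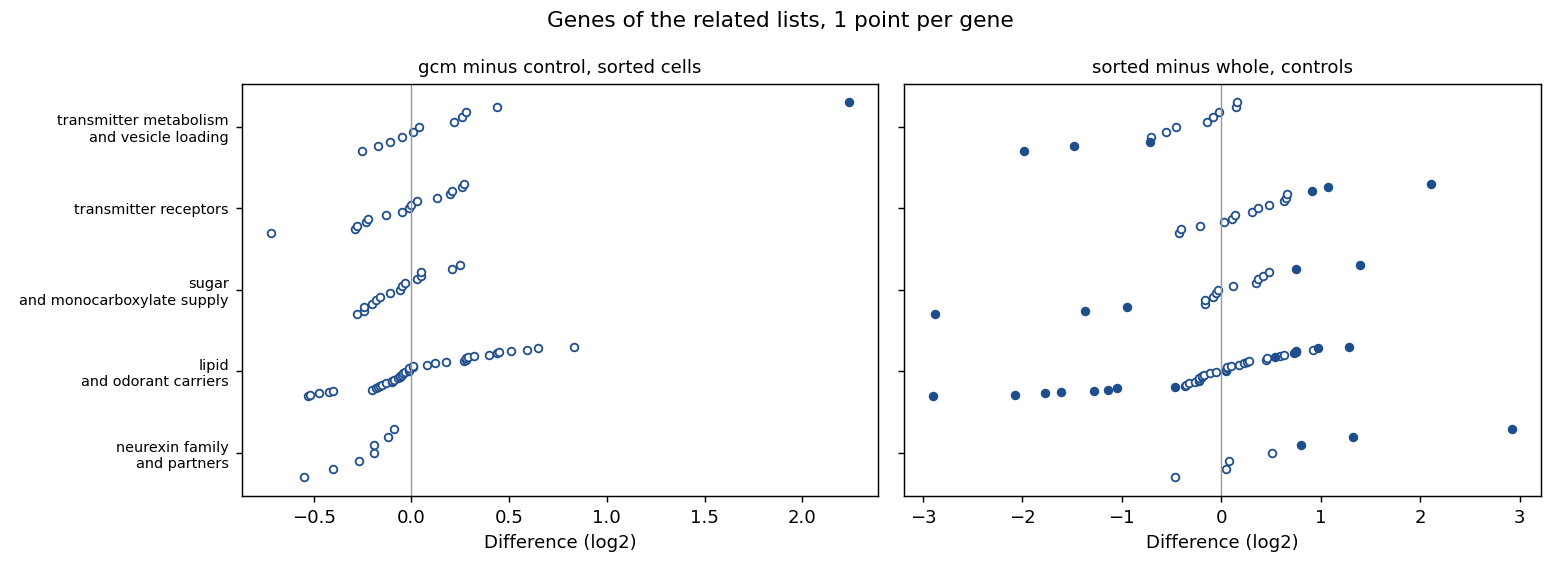
Difference in log2 level (horizontal axis) of each gene measured in 5 lists of related genes, with filled points for calls by limma in the fit of 14 arrays. On the left, gcm minus control in sorted cells, only Sardh is filled, at 2.24. On the right, sorted minus whole in controls, calls run from -2.90 (apolpp) to 2.92 (Cont).

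The genes whose profiles over the 14 arrays were most like each called member were found by the root mean square difference of levels after each profile was centred on its own mean, as a description only. For Gs1, which had an SD of 0.53 over the arrays, they were emei at 0.21, CG10822 at 0.24 and ric8a at 0.24. For Gs2 (SD 1.25) they were Pepck1, which encodes a phosphoenolpyruvate carboxykinase, bou and CG13365, each at 0.31. For Tret1-1 147028_i_at (SD 1.65) they were p23 at 0.27, Sfmbt at 0.28 and Fim at 0.30. For Tret1-1 147027_at (SD 0.79) they were fru at 0.24, CG15145 at 0.25 and dao at 0.26. For Obp44a (SD 0.62) they were CG11381 at 0.22, CG3746 at 0.28 and CG5250 at 0.30. No member was among those nearest to another member.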

How the data were processed

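Values are the deposited intensity of each probe set on each array, linear by their range. The sources used here do not give how the authors computed or scaled them. Groups and replicate numbers come from the sample titles. Trimmed means (2% to 98%) of the 15 distinct arrays differed 2.48-fold, so arrays were quantile normalised and taken as log2(intensity + 16). The 44 control probe sets were left out and no dim probe set was. In R 4.3.3, limma 3.58.1 was fitted with 1 mean per group and an intensity trend, adjusted by Benjamini-Hochberg over 13966 probe sets, and the pipeline was tested on simulated data. An array was left out of this fit if it correlated more with the other preparation than with its own, which held for 1 array. Members are named by the platform's gene symbols. Of all probe sets 12443 had 1 symbol, 327 several and 1196 none. Related genes and markers were matched to gene IDs of a RefSeq table (159 of 161 symbols matched, 139 with a probe set) and read from the probe set of the highest mean. Every member is named, whatever its values, with up to 3 called genes per related list and comparison. The members, lists, tests and choice of arrays were made with earlier results of these data known. Alternatives were all 15 arrays, pseudocounts of 1 and 64, values as deposited, median centring, the dimmest 40% left out, a fit of only the groups compared, a block for the replicate number, and every single array omitted. Within-group residuals of equally numbered whole embryo arrays correlated at 0.202 to 0.343. The unequally numbered whole gcm 3 and whole control 4 correlated at 0.290, and the other unequal pairs in whole embryos at 0.0289 or lower. Whether equal numbers pair these arrays is therefore not settled. The main fit has no block, so its SEs and p-values ignore any such pairing. In the other comparisons at least 1 equally numbered pair was under 0.1.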

Additional observations from a re-analysis of the deposited data

Results flagged for a closer look

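On the array labelled whole control 3 Gs2 had a level of 6.65, whereas the remaining whole control arrays ran from 8.68 to 8.99 in the normalisation of all 15 arrays, a gap to the nearest array beyond Dixon's limit for 4 values. Of 30 sets of 4 values tested this was the only such case, and chance gives about 1 in 20, so 1 case in 30 is not beyond chance. The array had already been left out for its likeness to the sorted arrays, where Gs2 was lower. The flag is therefore not a separate observation about Gs2.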

How the results depend on the processing

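The count of members called was 0 for gcm in sorted cells, gcm in whole embryos and the interaction under every setting run, and 0 to 0 when single arrays were left out. Between sorted and whole controls it was 4, where 46.4% of all probe sets were called, and 2 with all 15 arrays, where 26.1% were. It was 5 with median centring (56% of all), 3 without the dimmest 40% (64.8%) and 3 with only the control groups (41.8%). It ran from 2 to 4 when single arrays were left out, with 40.3% to 47% of all called. Between sorted and whole gcm it was 4 (45.6% of all). There it ran from 3 to 5 when single arrays were left out, with 39.6% to 48.4% of all called. Of all probe sets, 62 were called for gcm in whole embryos, and 43 or 110 with the replicate number as a block (the twice-deposited array as number 2 or 3). The block changed no member's call. For gcm in sorted cells it gave 72 or 79 in place of 108. Over all probe sets the calls for gcm in sorted cells were 17 over all 15 arrays, 58 for deposited values, 54 after median centring and 38 when only the compared groups were fitted. In whole embryos they were 8, 27, 100 and 13, and 23 and 158 with pseudocounts of 1 and 64 and 141 without the dimmest 40%, which removed Gat, Eaat2, Tret1-1 147027_at and the 2 dim axo probe sets from the test. The interaction called 4, and 1 to 7 in these settings and 2 to 64 without single arrays. No called member difference changed sign, and Gs1 was positive for gcm in every setting (0.42 to 0.79 in sorted cells, 0.32 to 0.65 in whole embryos). Gs2 and Tret1-1 147028_i_at were called between preparations in every setting, from -2.99 to -1.69 and -3.77 to -2.19. Values as deposited moved the median of all probe sets to -0.19 for gcm in whole embryos and to 0.24 in the interaction. Called between control preparations after median centring alone were Gat (0.65, adjusted p = 0.0358, limma) and axo 148190_at (0.50, adjusted p = 0.00425), where the median of all probe sets was 0.27. The causes were not tested. Signal near background limits Gat, Eaat2 and the dim axo probe sets.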

Other observations

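The array labelled whole control 3 is in none of the group means of 14 arrays above. In the normalisation of all 15 arrays its levels were 5.22 for Gat, 5.39 for Eaat2, 7.58 for Gs1, 6.65 for Gs2, 6.26 and 5.91 for the Tret1-1 probe sets 147027_at and 147028_i_at, 5.63 for Obp44a and 6.94 for the axo probe set 142345_at. For Gs2 and Tret1-1 147028_i_at these values lie among those of the sorted arrays. For Eaat2 and axo 142345_at they are above all of the 14 other arrays.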
